A study of Mus musculus with 32 samples.

Results

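The genes described here are 10 genes of heart muscle, measured in whole-lung RNA of newborn mice: Myh6, Myl7, Myl4, Nppa, Tnnt2, Tnni3, Actc1, Ryr2, Pln and Sln. They were taken by gene name from the array annotation, which gave 11 of the 55681 mouse probes on the array. Myh6 had 2 probes and each other gene had 1. The RNA came from 32 wild-type C57Bl/6J mice of both sexes, with 1 mouse on each 1-colour Agilent array. There were 8 groups of 4 mice. The newborn mice breathed 21% O2 (normoxia) or 85% O2 (hyperoxia, a model of bronchopulmonary dysplasia, a lung disease of preterm infants), and received by intraperitoneal injection either a scrambled antimiR or antimiR-34a, an oligonucleotide that blocks the microRNA miR-34a. Lungs were taken at postnatal day (P)5 or P14 after flushing through the heart with buffer. Mice of all 8 groups had been injected, so that no group was untouched, and the antimiR was given to the whole animal. Whole lung mixes the RNA of all of its cells.

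In the mouse, the wall of the pulmonary veins holds a sleeve of heart muscle that runs from the left atrium into the lung. Like atrial muscle, these cells contract with the alpha form of cardiac myosin and with the atrial light chains, and they release and take back calcium through the sarcoplasmic reticulum in each beat. In the reticulum, the calcium pump is held back by the small proteins phospholamban (Pln) and sarcolipin (Sln), of which sarcolipin is the form of the atria. The arrays carry no positions in the tissue. Heart muscle of the veins and pieces of atrium left on the lung therefore cannot be told apart, nor can fewer muscle cells and less RNA per cell.

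The antimiR was directed at miR-34a, whose mature strand is encoded at chr4:150068473-150068494 of the GRCm38.p6 mouse genome, plus strand, in RefSeq. It is shown here because its block is what separates the antimiR groups. Capitals mark the seed, bases 2 to 8, with which a microRNA pairs to its targets:
mmu-miR-34a-5p: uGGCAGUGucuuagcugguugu

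The 250 bases before the annotated start of 4 of the genes follow, because the genes moved together from mouse to mouse. RefSeq sequences of the GRCm38.p6 build were matched by symbol for 9 of the 10 genes, in 10 entries, and Sln was not among them. Capitals mark matches, on either strand, to 5 motifs of muscle and heart gene promoters: the CArG box (bound by serum response factor), the MEF2 box, AGATAA (bound by GATA factors), CATTCC (bound by TEAD factors) and TNAAGTG (bound by NKX2-5). In Myl7, Actc1, Nppa and Myh6 the windows span chr11:5898783-5899032, chr2:114052876-114053125, chr4:148000472-148000721 and chr14:54966608-54966857, the first 2 and the last on the minus strand and Nppa on the plus strand.
Myl7: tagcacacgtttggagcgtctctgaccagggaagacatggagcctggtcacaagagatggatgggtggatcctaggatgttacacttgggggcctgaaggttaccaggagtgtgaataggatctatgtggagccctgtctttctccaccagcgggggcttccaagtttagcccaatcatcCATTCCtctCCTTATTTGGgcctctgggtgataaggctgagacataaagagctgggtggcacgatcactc
Actc1: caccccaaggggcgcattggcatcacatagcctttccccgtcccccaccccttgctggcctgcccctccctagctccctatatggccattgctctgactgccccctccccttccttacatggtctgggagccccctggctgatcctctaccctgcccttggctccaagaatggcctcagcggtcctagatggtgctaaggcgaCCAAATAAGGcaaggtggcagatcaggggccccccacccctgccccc
Nppa: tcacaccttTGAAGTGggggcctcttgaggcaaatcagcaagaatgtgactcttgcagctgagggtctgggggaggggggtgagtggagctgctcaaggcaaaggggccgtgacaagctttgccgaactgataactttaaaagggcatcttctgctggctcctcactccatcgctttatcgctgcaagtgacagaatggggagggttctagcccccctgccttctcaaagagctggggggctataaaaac
Myh6: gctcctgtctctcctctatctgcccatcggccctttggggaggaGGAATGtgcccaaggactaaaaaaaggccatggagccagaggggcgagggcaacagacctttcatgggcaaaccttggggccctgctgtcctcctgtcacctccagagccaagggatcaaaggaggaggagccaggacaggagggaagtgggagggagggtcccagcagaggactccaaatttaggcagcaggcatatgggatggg

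In these windows a CArG box lay 61 to 52 bases before the start of Myl7 and 47 to 38 bases before that of Actc1, in 2 of the 10 entries against 1.47% of the 32851 mouse promoters of the same length. CATTCC was found in 3 entries (Myl7, Tnnt2 and Myh6, against 12.6% of all promoters), AGATAA in 2 (Tnnt2 and Pln, against 9.99%) and TNAAGTG in 1 (Nppa, against 10.1%). The MEF2 box was in none of the 10 entries, against 2.92% of all promoters. No match of different motifs overlapped in the 4 windows shown. These are matches of letters, and binding was not measured.

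Levels are on a log2 scale, with the 75th percentile of all signals of an array set to 0, so that a level of 0 is that of a probe at the 75th percentile. A level may be compared between mice for 1 gene, not between genes. Between 33606 and 40774 probes per array were well above background. All 10 genes passed the filter on dim probes at both ages, and all were well above background on all 32 arrays except Pln, which was so on 24. Each slide held 8 arrays of 1 age and 1 oxygen level, with scrambled antimiR on one row and antimiR-34a on the other. An effect of oxygen or age therefore cannot be told apart from a slide, nor an effect of the antimiR from an array row.

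A few arrays stood apart in genes of other tissues. In P5 21% O2 scrambled replicate 4, the mean level of 13 skeletal muscle genes was 5.84 above its mean over all mice, against -0.44 to 0.20 in the other 3 mice of that group, and 13 of the 13 genes were well above background against 10 to 11. Sln, Actc1 and Myl4 are also used by immature skeletal muscle, and where leaving out this mouse ended a call at P5, that is said beside the result. At P14 in 21% O2, the same list lay between 0.14 and 2.24, with the highest value in scrambled replicate 1, and between -0.98 and 0.05 in 85% O2. Brown fat genes lay between -0.05 and 2.25 at P14 in 21% O2, and between -0.37 and 0.21 in 85% O2. White fat genes lay between 2.01 and 5.46 there, against -2.23 to 1.70, the highest of the hyperoxic values being that of P14 85% O2 antimiR-34a replicate 4, where the other 7 mice in 85% O2 lay between -2.23 and -1.68. At P5 the highest white fat value was 0.44, in P5 21% O2 scrambled replicate 1, where 7 of 8 white fat genes were well above background against 4 to 6 in the other mice of that age. Their part in the results was not tested.

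RNA of heart muscle genes was detected in every lung. Among markers of the ventricle, Irx4, a transcription factor of the ventricle, exceeded background on every array of 7 groups, at levels of -5.18 to -3.70, and on 3 of 4 arrays of P5 85% O2 antimiR-34a mice. Myl2, the ventricular regulatory light chain, was well above background on all 32 arrays, at levels of -4.34 to -0.54. Hcn4, the pacemaker channel of the sinus node, was not well above background on any array.

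**Figure D1:**
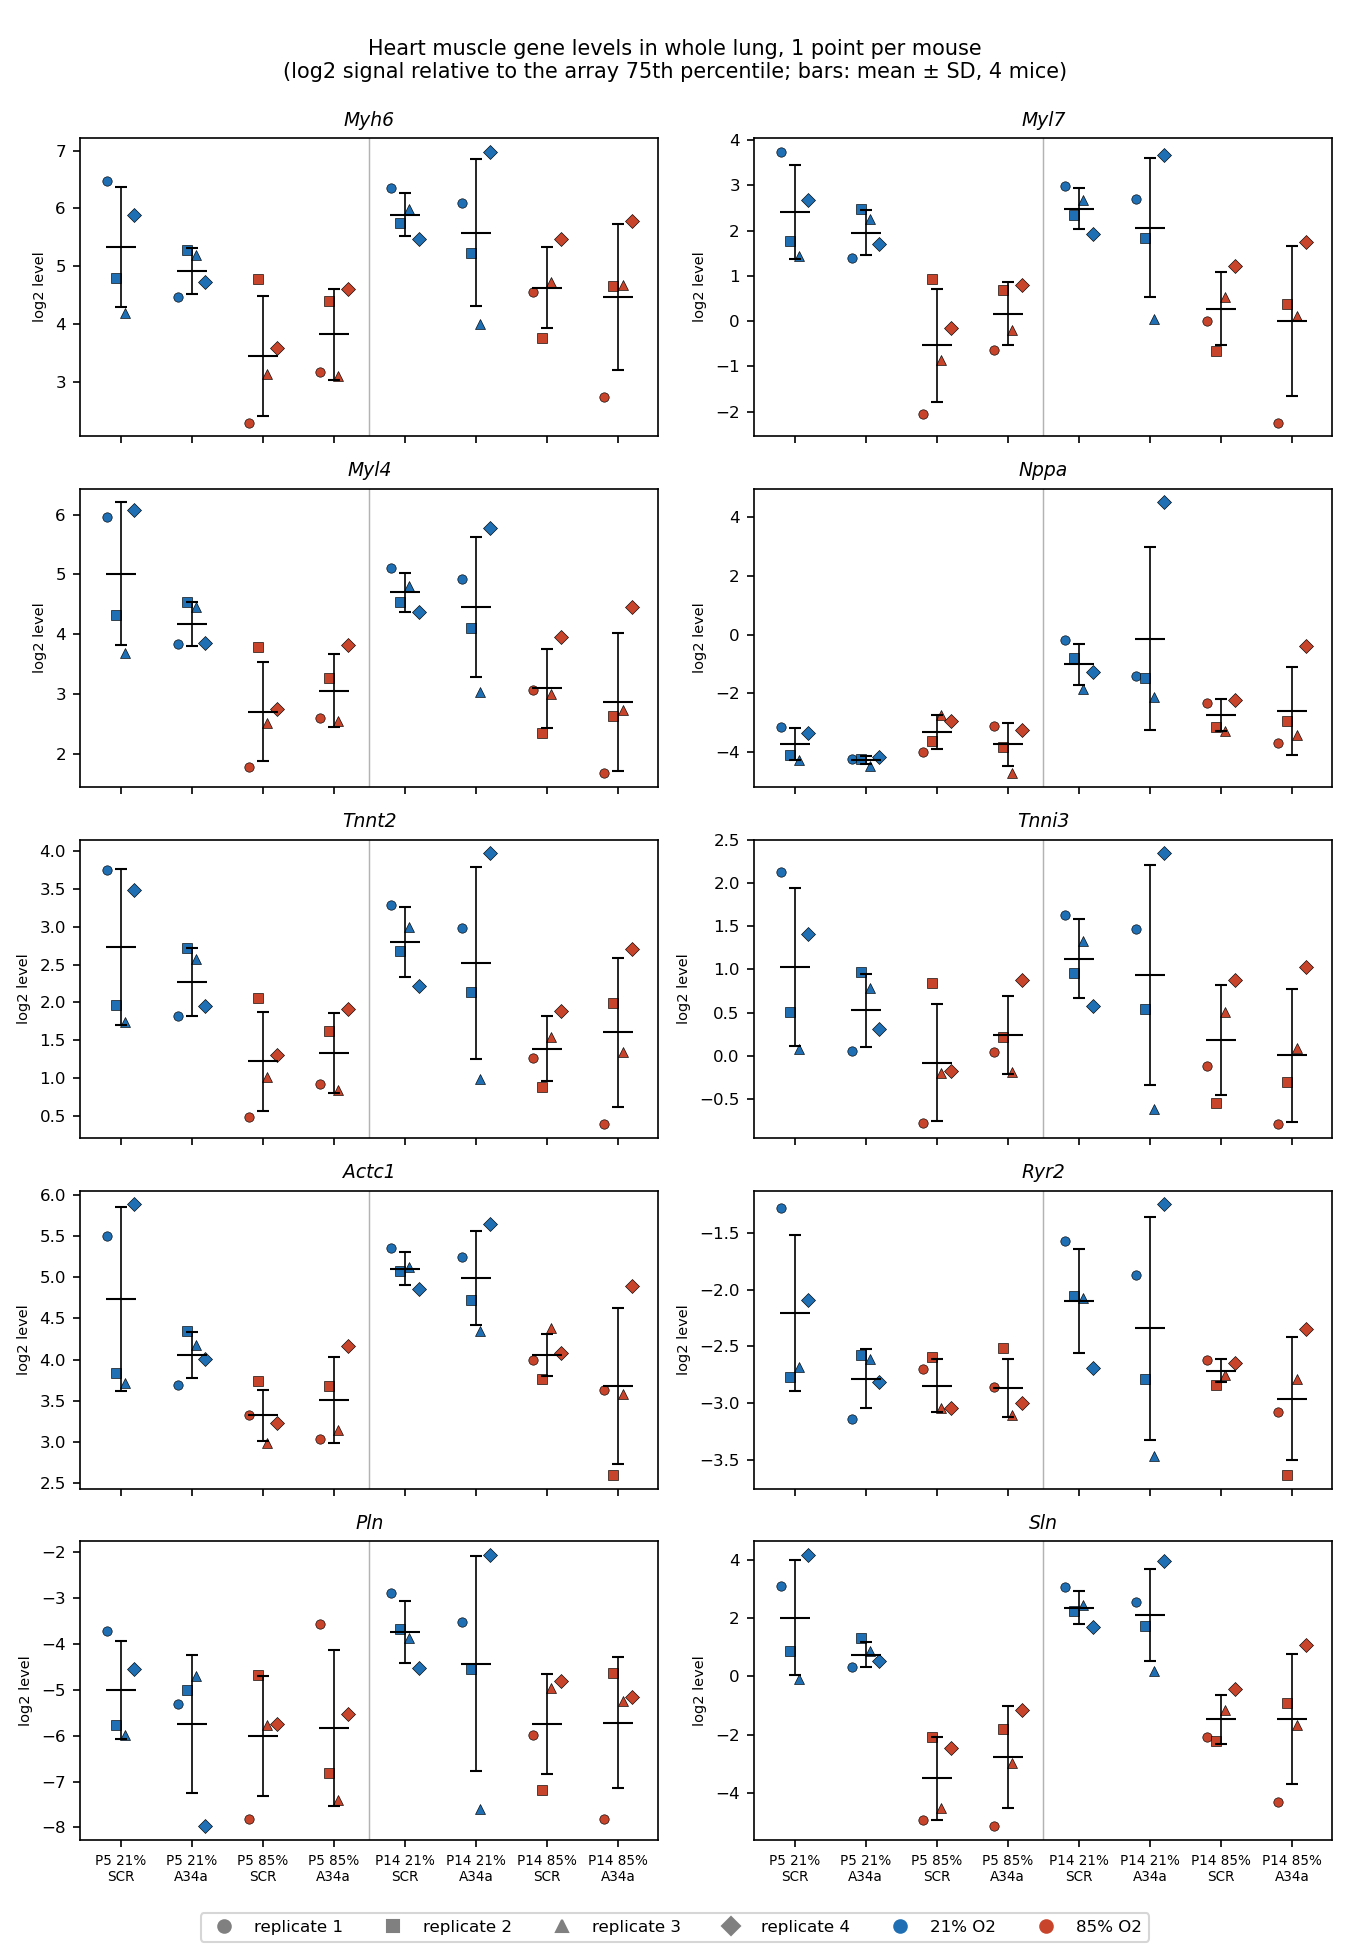
Level of each of the 10 heart muscle genes in each of the 32 mice, as log2 with the array's 75th percentile at 0 (y axis), by group (x axis). Blue points are mice in 21% O2 and red points mice in 85% O2, symbols give the replicate number, and black bars give the mean ± SD of 4 mice. Sln and Myl7 were lower in 85% O2, and 1 mouse had an Nppa level of 4.50.

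The motor protein of atrial muscle is Myh6, the alpha cardiac myosin heavy chain. Its brighter probe lies at chr14:55560774-55560833 on the minus strand of the mm9 build used by the array annotation. At P5, the 4 scrambled antimiR mice in 21% O2 had Myh6 levels of 6.48, 4.80, 4.19 and 5.88. In 85% O2 the levels were 2.30, 4.78, 3.15 and 3.60, with 1 mouse inside the range of the normoxic group. The mean fell from 5.34 ± 1.04 to 3.46 ± 1.03 (SD, n = 4 each), a log2 change of -1.88 ± 0.55 (SE), or 3.68-fold (limma, adjusted p = 0.0136). The second Myh6 probe, at chr14:55584132-55584191, gave -2.32 ± 0.61 (adjusted p = 0.00723). At P14, levels were 6.36, 5.75, 5.99 and 5.48 in 21% O2 and 4.56, 3.77, 4.73 and 5.48 in 85% O2. The lowest normoxic and the highest hyperoxic mouse were level at this rounding, and the change of -1.26 ± 0.65 did not pass the test (adjusted p = 0.105), nor did that of the second probe (-0.85 ± 0.62, adjusted p = 0.253). At P14 in antimiR-34a mice both probes were lower in 85% O2, and only the second passed the test. It gave -1.49 ± 0.62 (adjusted p = 0.0475), and the brighter one gave -1.12 ± 0.65 (adjusted p = 0.142).

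Myl7 is the regulatory light chain of atrial myosin. At P5, scrambled antimiR mice in 21% O2 had Myl7 levels of 3.75, 1.77, 1.43 and 2.68. In 85% O2 the levels were -2.04, 0.93, -0.86 and -0.15. Every hyperoxic mouse lay below every normoxic mouse, and Myl7 fell by 2.94 ± 0.60 (SE) on the log2 scale, or 7.66-fold (limma, adjusted p = 0.00130). At P14, the levels were 2.98, 2.35, 2.68 and 1.93 in 21% O2 and 0.01, -0.66, 0.54 and 1.22 in 85% O2. The groups again did not overlap, and the change was -2.21 ± 0.80 (adjusted p = 0.0281). Myl4 (probe at chr11:104448441-104448500), the essential light chain of atrial myosin, fell by 2.31 ± 0.53 at P5 (adjusted p = 0.00293, and by 1.95 without the mouse rich in skeletal muscle genes, adjusted p = 0.0105) and by 1.61 ± 0.59 at P14 (adjusted p = 0.0298).

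The genes of the thin filament come next. Tnnt2, cardiac troponin T, ranged from 1.73 to 3.75 in scrambled antimiR mice in 21% O2 at P5 and from 0.49 to 2.06 in 85% O2, a change of -1.52 ± 0.46 (limma, adjusted p = 0.0154). At P14 the ranges were 2.22 to 3.29 and 0.88 to 1.88, without overlap, and the change was -1.41 ± 0.57 (adjusted p = 0.0443). Actc1 (chr2:113873064-113873123), the cardiac alpha actin, changed by -1.42 ± 0.43 at P5 (adjusted p = 0.0151, and -1.03 without the mouse rich in skeletal muscle genes, adjusted p = 0.0473) and by -1.05 ± 0.38 at P14 (adjusted p = 0.0276). Tnni3 (chr7:4472043-4472102), cardiac troponin I, changed by -1.11 ± 0.42 at P5 (adjusted p = 0.0464). Its change of -0.94 ± 0.55 at P14 did not pass (adjusted p = 0.154). The Tnni3 call at P5 was lost on leaving out any of 5 of the 8 mice, with adjusted p up to 0.150, and in the fit on the compared groups alone (adjusted p = 0.0989).

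Sln, the inhibitor of the calcium pump in atrial muscle (probe at chr9:53701574-53701633), had the largest change of the 10 in all 4 comparisons of oxygen levels. At P5, scrambled antimiR mice in 21% O2 had Sln levels of 3.12, 0.87, -0.08 and 4.17, the last being the mouse rich in skeletal muscle genes. In 85% O2 the levels were -4.93, -2.08, -4.51 and -2.47. The groups were separated by a gap, and the mean went from 2.02 ± 1.97 to -3.50 ± 1.43 (SD), a change of -5.52 ± 0.98 (SE), or 45.9-fold (limma, adjusted p = 0.000480). Without the mouse rich in skeletal muscle genes the change was -4.80 (adjusted p = 0.00170). At P14, levels were 3.06, 2.24, 2.45 and 1.70 in 21% O2 and -2.09, -2.22, -1.15 and -0.43 in 85% O2, a change of -3.84 ± 0.96 or 14.3-fold (adjusted p = 0.00346). Sln kept its call whichever of the compared mice was left out, at both ages and in both antimiR groups.

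The other calcium handling genes of the set did not pass the test. Ryr2 (chr13:11645812-11645871), the calcium release channel of the reticulum, changed by -0.64 ± 0.27 at P5 in scrambled antimiR mice (limma, adjusted p = 0.0648) and by -0.62 ± 0.40 at P14 (adjusted p = 0.198). Pln (chr10:53064944-53065003) was near the limit of detection, well above background on 2 to 4 arrays of each group. Its changes were -0.999 ± 0.92 at P5 and -2.00 ± 1.00 at P14 (adjusted p = 0.397 and 0.0966).

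Nppa, which encodes atrial natriuretic peptide (chr4:147376024-147376083), did not follow the contractile genes at P5. Its levels in scrambled antimiR mice were -3.15, -4.11, -4.26 and -3.35 in 21% O2 and -4.00, -3.62, -2.73 and -2.94 in 85% O2. The ranges overlapped, and the change was 0.39 ± 0.36 (limma, adjusted p = 0.391). At P14 the levels were -0.18, -0.79, -1.85 and -1.26 in 21% O2 and -2.34, -3.15, -3.30 and -2.23 in 85% O2. Here every hyperoxic mouse was lower, while the change of -1.73 ± 1.17 did not pass the test (adjusted p = 0.214). That fit shared 1 estimate of the spread over the 4 groups of its age, among them the P14 21% O2 antimiR-34a mice, at -1.42, -1.49, -2.14 and 4.50. Fitted on the 8 compared mice alone, the same change had an adjusted p of 0.00655. The oxygen effect on Nppa differed between the ages by -2.13 ± 1.27 (adjusted p = 0.187), which did not pass the test, and passed it (adjusted p = 0.0089) where only the 4 scrambled antimiR groups in question were fitted.

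Counted together, 7 of the 10 genes were called at P5 in scrambled antimiR mice (limma, adjusted p under 0.05), all lower in 85% O2. Hyperoxia moved a large part of the array, and 43.9% of the 35981 tested probes were called, 26.5% as lower. The median change of the 10 genes was -1.47, against -0.07 over all tested probes. In 2 of the 10 genes, Myl7 and Sln, the groups did not overlap, against 39.1% of all tested probes. Without the mouse rich in skeletal muscle genes, 6 of the 10 were called, Tnni3 being lost (adjusted p = 0.108), and without P5 21% O2 scrambled replicate 1, the mouse highest in white fat genes at P5, 4 were. Fitted on the 8 compared mice alone, 6 were called, Tnni3 again being lost, against 41.1% of tested probes. Of all called probes 39.7% were higher in 85% O2, and 52.8% after quantile normalization. Ryr2 and Pln were also lower in the mean, and Nppa was higher.

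At P14 in scrambled antimiR mice, 5 of the 10 genes were called, all lower, and 60.9% of 38452 tested probes were called (32.7% as lower). The count for the heart muscle genes was thus near the share of the array. All 10 were lower in the mean, with a median change of -1.51 against -0.07 over all tested probes. In 8 of the 10 the groups did not overlap (all but Tnni3 and Ryr2), against 56.7% of all tested probes. Among the 8, Myh6 is counted on a lowest normoxic value of 5.4782 and a highest hyperoxic value of 5.4781. Pln, also counted, was well above background on 2 of the 4 arrays in 85% O2. Fitted on the 8 compared mice alone, 10 of the 10 genes were called, against 59.5% of tested probes. In the fit over 4 groups, 1 gene was called without replicate 1 or replicate 2 of the 85% O2 group or replicate 1 of the 21% O2 group, 3 without 85% O2 replicate 3 and 2 without 21% O2 replicate 3. Of all called probes 46.3% were higher in 85% O2, and 62% after normexp background correction. By the methods' t-test, 2 genes were called at P5, against 29.8% of tested probes, and 6 at P14, against 50.1%, after Benjamini-Hochberg adjustment. No gene's oxygen effect differed between P5 and P14 in scrambled antimiR mice by the test of that difference (0 of 10 called, none at an unadjusted p under 0.05, against 40.8% of 39159 tested probes called), while Nppa was called, against 39.8% of tested probes, where only the 4 groups in question were fitted.

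**Figure D2:**
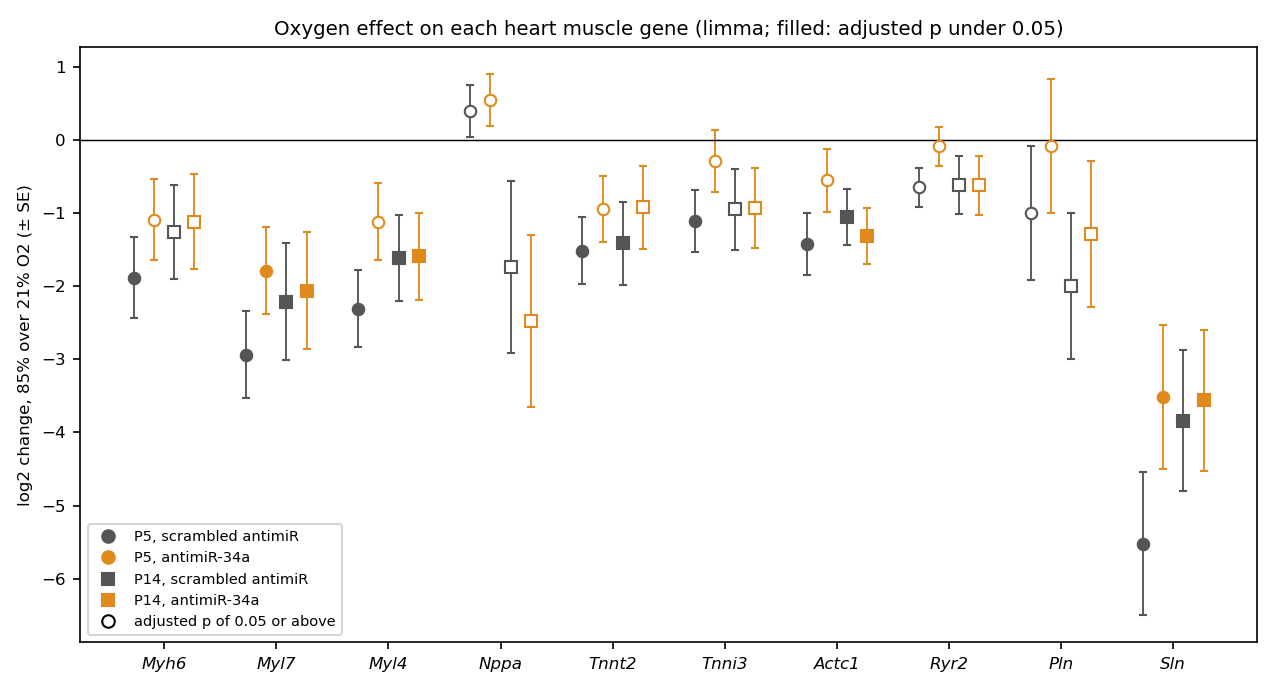
Log2 change from 21% to 85% O2 (y axis, ± SE) of each heart muscle gene (x axis) in scrambled antimiR mice (grey) and antimiR-34a mice (orange), at P5 (circles) and P14 (squares), by limma with 4 mice a group. Filled symbols passed an adjusted p of 0.05. Sln passed in all 4 comparisons, with changes of -5.52, -3.52, -3.84 and -3.56.

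In mice given antimiR-34a, 9 of the 10 genes were lower in the mean at P5 in 85% O2, all but Nppa (0.55 ± 0.36, adjusted p = 0.227). The median change of the 10 was -0.75, and no gene's oxygen effect differed from that in scrambled antimiR mice by the test of the difference (0 of 10 called, smallest adjusted p 0.593 by limma). Of the 10 genes, 2 were called, Sln (-3.52 ± 0.98, adjusted p = 0.00925) and Myl7 (-1.78 ± 0.60, adjusted p = 0.0242), both lower in 85% O2. Over the array 46.6% of tested probes were called, 29.5% as lower. The fit on the 8 compared mice alone called 5 of the 10 (43.5% of tested probes), and the methods' t-test called 1 (33.2%). Of all calls 36.8% were higher, and 49.1% after quantile normalization. Groups did not overlap for Sln, Myl7 and Myl4, against 42.0% of tested probes. The count was 1 without 21% O2 antimiR-34a replicate 2 or 3 or 85% O2 antimiR-34a replicate 1, and Sln kept its call in each. Myl7 also lost its call without 85% O2 antimiR-34a replicate 3, and so kept it in 4 of the 8 fits that left out 1 mouse. Nppa was called, as higher, in 1 of the 8. Sln levels were 0.33, 1.31, 0.86 and 0.52 in 21% O2 and -5.14, -1.79, -2.97 and -1.16 in 85% O2. Myh6 levels were 4.47, 5.29, 5.20 and 4.72 in 21% O2 and 3.18, 4.40, 3.11 and 4.61 in 85% O2, and the change of -1.09 ± 0.55 did not pass (adjusted p = 0.121).

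At P14 in antimiR-34a mice, 4 of the 10 genes were called, all lower: Sln (-3.56 ± 0.96), Myl7 (-2.06 ± 0.80), Myl4 (-1.59 ± 0.59) and Actc1 (-1.31 ± 0.38). Over the array 65.5% of tested probes were called, 37.9% as lower, and the groups of 58.9% did not overlap. The fit on the 8 compared mice alone called 2 of the 10, Sln and Actc1 (63% of tested probes), and the methods' t-test called 0, with 1 at an unadjusted p under 0.05 (55.6%). The groups overlapped for all 10 heart muscle genes. Myh6 was 4.00 in P14 21% O2 antimiR-34a replicate 3, where the remaining mice of that group had 6.10, 5.24 and 6.98. It was 5.78 in P14 85% O2 antimiR-34a replicate 4, against 2.74, 4.66 and 4.68. This hyperoxic mouse was also the one high in white fat genes (1.70), and in normoxia replicate 3 had the lowest white fat value (2.01, against 5.46, 3.12 and 4.99). Without the hyperoxic replicate 4, 5 of the 10 genes were called. Without that normoxic replicate 3, 10 of the 10 genes were called, and 2 were without replicate 1 or 4 of the same group or replicate 1 or 3 of the 85% O2 group. Of all calls 42.1% were higher, and 56% after quantile normalization.

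AntimiR-34a itself changed none of the 10 genes past the threshold. In 21% O2 at P5, 0 of 10 were called, while 0.136% of tested probes were. All 10 were lower in the mean, with changes of -1.27 to -0.42, and 1 of them, Ryr2, had an unadjusted p under 0.05 (adjusted p = 0.280 by limma). The lowest change, that of Sln, was -0.55 with the mouse rich in skeletal muscle genes left out, and that of Actc1 went from -0.68 to -0.30. In 85% O2 at P5, 0 of 10 were called (0.0639% of tested probes), with changes of -0.41 to 0.73. At P14, 0 of 10 were called in 21% O2 (0% of tested probes), with changes of -0.69 to 0.88, and 0 of 10 in 85% O2 (2.67% of tested probes), with changes of -0.38 to 0.22. In these last 3 comparisons no gene had an unadjusted p under 0.05, and the methods' t-test called none of the 10 in any of the 4. The antimiR effect did not differ between oxygen levels for any gene at P5 or at P14 (0 of 10 called at each age, none at an unadjusted p under 0.05, against 0.0556% and 0.0884% of tested probes).

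These values leave room for changes of some size. In 85% O2, the 95% interval of the Sln change by antimiR-34a spanned -1.37 to 2.84 at P5 and -2.05 to 2.08 at P14. For Myh6 in 85% O2 it spanned -0.82 to 1.56 at P5 and -1.56 to 1.21 at P14, and in 21% O2, -1.60 to 0.77 at P5 and -1.70 to 1.07 at P14.

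Between P5 and P14, 1 of the 10 genes changed, Nppa. In scrambled antimiR mice in 21% O2 it rose by 2.70 ± 0.90 on the log2 scale, or 6.49-fold (limma, adjusted p = 0.0144), and all 4 mice at P14 were above all 4 at P5. It was the 1 gene of 10 called and the 1 whose groups did not overlap, where 51.4% of 39159 tested probes were called and the groups of 49.1% did not overlap. The rise kept its call on leaving out each of the 8 mice in turn, at 2.42 to 2.97. The other 9 genes changed by -0.31 to 1.26, with Pln the highest. Sln changed by 0.34 ± 1.01, Myl7 by 0.08 ± 0.74 and Tnnt2 by 0.07 ± 0.54. With the mouse rich in skeletal muscle genes left out, the changes were 1.06 for Sln, 0.17 for Myl7 and 0.32 for Tnnt2, none past the threshold.

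The spread between mice of 1 group was wide. The SD within groups, pooled over the 8 groups, was 1.49 for Sln, 1.47 for Pln, 1.32 for Nppa, 1.08 for Myl7 and 0.92 for Myh6. It was 0.86 for Myl4, 0.79 for Tnnt2, 0.75 for Tnni3, 0.62 for Actc1 and 0.52 for Ryr2. The median over 39159 tested probes was 0.20, and 95% of probes had an SD below 0.71. Sln and Pln lay at percentile 99.8 of all tested probes and Ryr2, the least variable of the 10, at percentile 87.2.

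Mice high in 1 of the genes within their group tended to be high in the others. Over the 32 mice, with each value taken as the deviation from its group mean, Pearson's r between 2 of the genes ranged from 0.37 to 0.98 in the 45 pairs, with a median of 0.74, and exceeded 0.9 in 14. The points share the array and its scaling, and r is given as a description. Among Myh6, Myl7, Myl4, Tnnt2, Tnni3, Actc1 and Sln, the median r was 0.92 over 21 pairs, the lowest being 0.63 (Actc1 with Myl7) and the highest 0.98 (Myh6 with Myl7). Nppa, Pln and Actc1 followed the rest less closely: r with the mean of the other 9 genes was 0.65 for Nppa, 0.71 for Pln and 0.72 for Actc1, against 0.98 for Tnnt2. Without the mouse rich in skeletal muscle genes and the mouse with the Nppa level of 4.50, the median over all 45 pairs was 0.71.

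**Figure D3:**
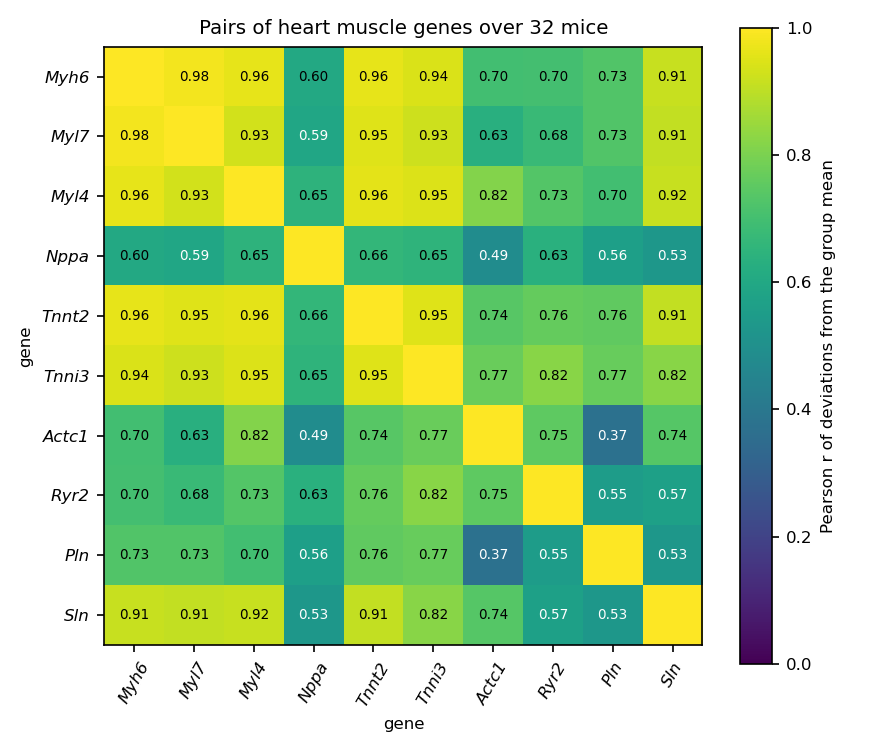
Pearson's r between each pair of heart muscle genes over 32 mice, with each value taken as its deviation from the group mean. Colour and the printed number give r on a scale from 0 to 1. The pairs among Myh6, Myl7, Myl4, Tnnt2 and Tnni3 are the brightest block, at 0.93 to 0.98, and the darkest square is Actc1 with Pln at 0.37.

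The 15 genes outside the set whose deviations over the 32 mice were most like the mean deviation of the 10 were led by Nkx2-5 (r = 0.97), the homeobox factor of heart muscle. They included Mybpc3 (0.97), Actn2 (0.95), Csrp3 (0.95), Tnnc1 (0.95), Myoz2 (0.95) and Ttn (0.94), all parts of the sarcomere or its Z disc. Myom2 and Tpm1 are sarcomere genes as well, Mb encodes myoglobin and Casq2 the calcium store protein of the reticulum. Pgam2, Mapk10 and Myh7b were also among the 15. Across the array 89 of 39159 tested probes, or 0.227%, had r over 0.8.

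The change of each gene was then set against that of Myh6 in the same mouse, a comparison chosen after the data were seen. Sln minus Myh6 in the same mouse lay between -4.34 and -1.70 in the 8 mice at P5 in 21% O2 and between -8.32 and -5.77 in the 8 in 85% O2. At P14 the ranges were -3.83 to -3.01 and -7.07 to -4.69. These ranges did not overlap at either age. Myl7 minus Myh6 was separated too, by a narrow gap, with -3.20 to -2.74 against -4.35 to -3.30 at P5 and -3.95 to -3.31 against -4.98 to -4.02 at P14. Nppa minus Myh6 was separated at P5 in the other direction, with -9.68 to -8.45 in 21% O2 against -8.40 to -5.88 in 85% O2, and its ranges overlapped at P14. For Tnnt2 minus Myh6 the ranges overlapped at both ages. Such a difference takes a slope of 1 on Myh6 (log2 step of the gene per log2 step of Myh6). With another slope, a fall in Myh6 alone shifts it. The slopes of the fit described below were 0.29 for Nppa, 1.54 for Sln and 1.05 for Myl7 at P5. At P14 they were 1.31, 1.44 and 1.24.

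**Figure D4:**
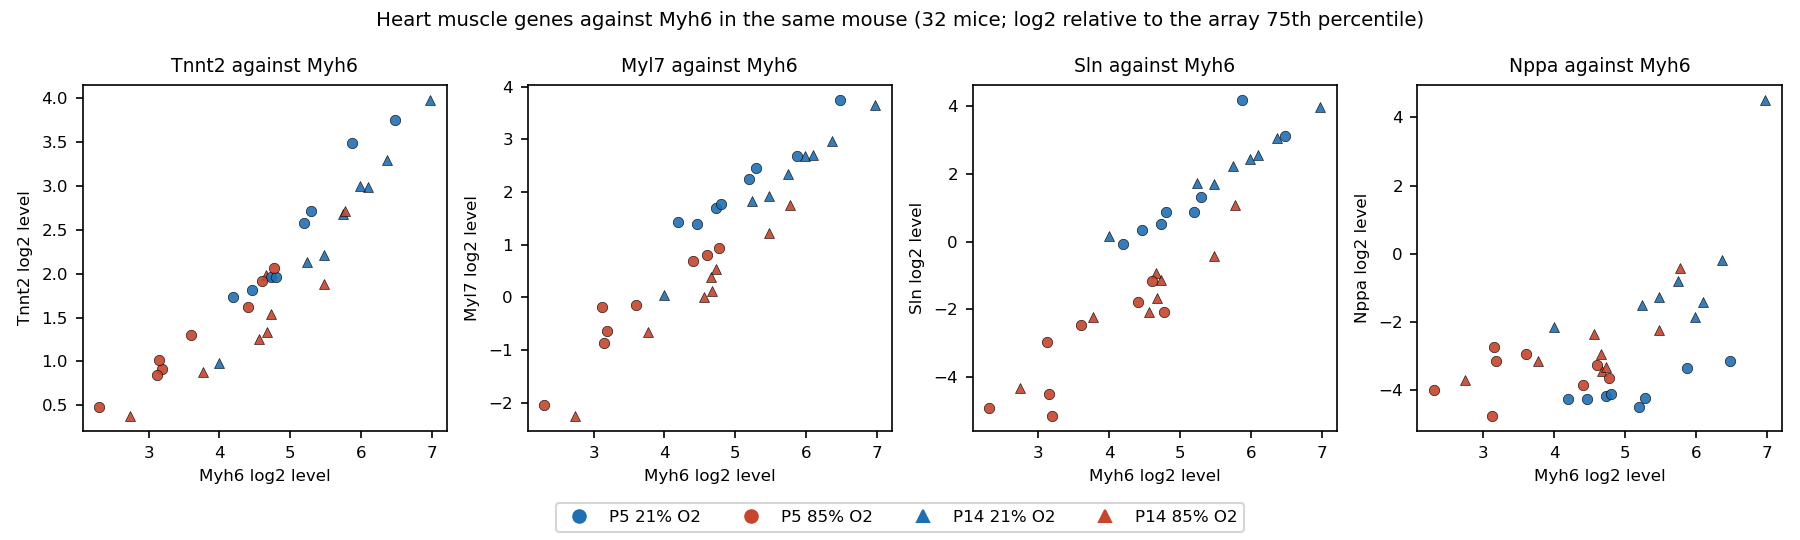
Level of Tnnt2, Myl7, Sln and Nppa (y axes) against the level of Myh6 (x axis) in the same mouse, 32 mice, all as log2 with the array's 75th percentile at 0. Circles are P5 and triangles P14, blue is 21% O2 and red is 85% O2. Where Myh6 levels meet, red and blue points mix for Tnnt2, while for Sln most red points lie below the blue ones (the highest, at 1.09, lies above the lowest blue point, at -0.08), and Nppa rises to 4.50 in 1 mouse.

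With each mouse's Myh6 level as a covariate and 1 slope for all groups of an age, the remaining oxygen effect at P5 in scrambled antimiR mice was -2.63 ± 0.69 for Sln (limma, adjusted p = 0.00914), -0.97 ± 0.20 for Myl7 (adjusted p = 0.00237) and -0.60 ± 0.22 for Myl4 (adjusted p = 0.0447). It was -0.02 ± 0.18 for Tnnt2, 0.25 ± 0.19 for Tnni3, -0.28 ± 0.36 for Actc1 and -0.05 ± 0.28 for Ryr2, none of which passed. The same 3 genes of 9 were called at P14: Sln at -2.02 ± 0.30 (adjusted p = 0.000107), Myl7 at -0.65 ± 0.12 (adjusted p = 0.000460) and Myl4 at -0.49 ± 0.18 (adjusted p = 0.0348). The shares of all tested probes called in this fit were 38.0% at P5 and 56.5% at P14. Nppa stood at 0.94 ± 0.45 at P5 (adjusted p = 0.114) and at -0.09 ± 0.96 at P14. Myh6 itself was lower in 85% O2, so that few mice of both oxygen levels share a Myh6 level and the fit leans on the common slope.

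In antimiR-34a mice the fit with Myh6 called 3 of 9 genes at P5, Sln (-1.84 ± 0.58) and Myl7 (-0.64 ± 0.17) as lower and Tnni3 (0.50 ± 0.16) as higher, against 47.0% of tested probes. At P14 it called 4 of 9, all lower, against 62.6%: Sln (-1.95 ± 0.29), Myl7 (-0.68 ± 0.11), Myl4 (-0.60 ± 0.18) and Actc1 (-0.91 ± 0.35). Without the mouse rich in skeletal muscle genes, the same 3 genes were called at P5 in scrambled antimiR mice, Sln at -2.39 ± 0.58, Myl7 at -1.03 ± 0.19 and Myl4 at -0.49 ± 0.14.

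**Figure D5:**
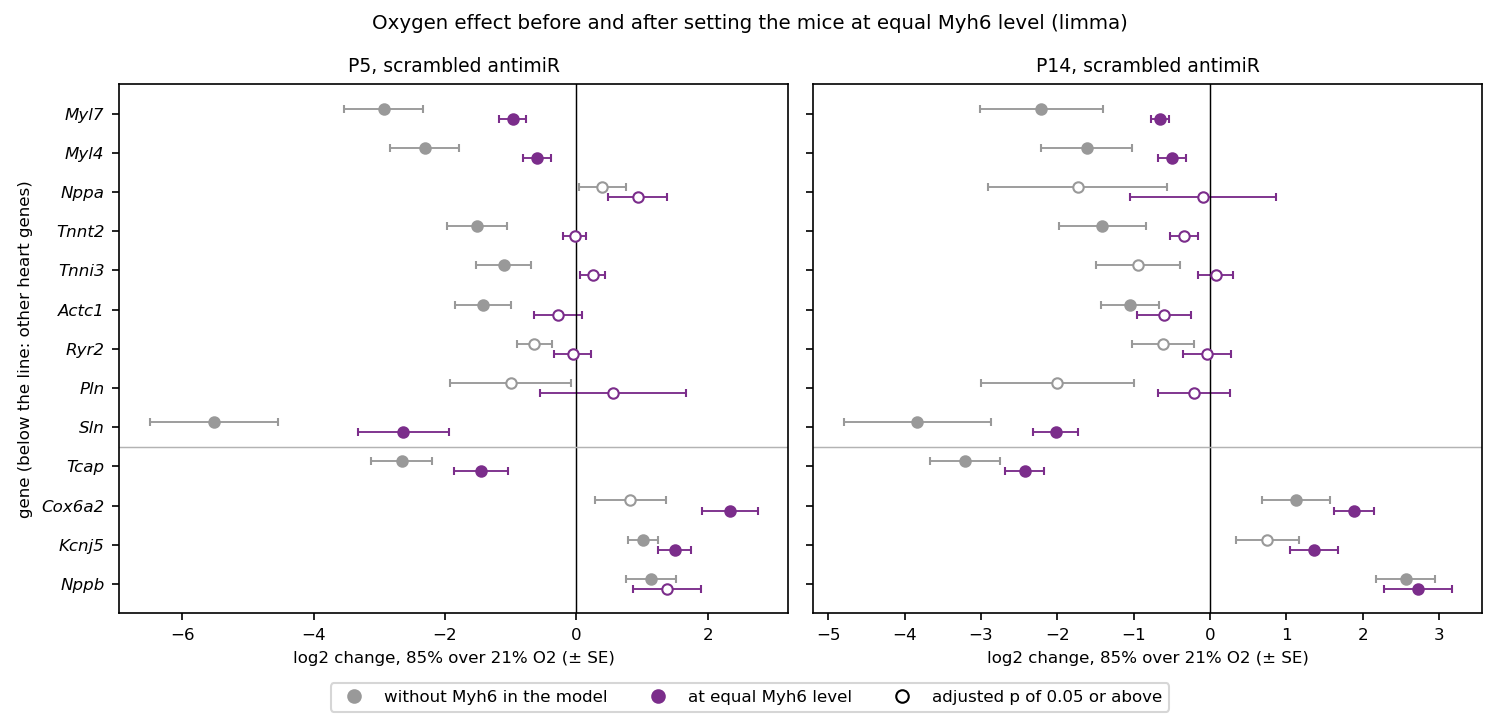
Log2 change from 21% to 85% O2 (x axis, ± SE) in scrambled antimiR mice at P5 (left) and P14 (right), for 9 heart muscle genes and 4 other heart genes (y axis), without Myh6 in the model (grey) and at equal Myh6 level (purple), by limma. Filled symbols passed an adjusted p of 0.05. The change of Tnnt2 at P5 went from -1.52 to -0.02, while that of Sln went from -5.52 to -2.63.

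Other genes of heart muscle were counted by role, against 26.5% of all tested probes called as lower at P5 and 32.7% at P14. Of the 11 tested sarcomere genes outside the set, 5 fell and 1 rose at P5 in scrambled antimiR mice, the largest falls being those of Actn2 (-2.67), Tcap (-2.66), Ttn (-1.97) and Myom2 (-1.93). At P14, 3 of 12 fell, a share below that of the array, and 1 rose. Tcap, the titin cap of the Z disc, fell by 3.21 ± 0.46 and Xirp1 by 0.84, while Nebl rose by 1.48. Mypn, not well above background on any array in 85% O2, was at least 1.13-fold lower. Its adjusted p of 9.42e-06 (limma) is that of the measured levels, not of this bound. The median of this list was -1.04 at P5 and -1.13 at P14. Without the mouse rich in skeletal muscle genes, 2 of the 11 fell at P5, Actn2 by 1.97 and Tcap. Tcap was also lower at equal Myh6 level, at -1.45 ± 0.41 at P5 (adjusted p = 0.0132) and at -2.42 ± 0.25 at P14 (adjusted p = 8.0e-06). It was the 1 of 11 called lower in that fit at P5, where 2 were higher, against 38.0% of tested probes called. At P14, 3 of 12 were lower and 2 higher, against 56.5%. In antimiR-34a mice, 0 of 11 were lower and 5 higher at P5 (47.0%), and 4 of 12 were lower and 1 higher at P14 (62.6%).

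Of 8 other calcium handling genes, 4 fell at P5 (26.5% of all tested probes) and none rose. Trdn (-3.22), Casq2 (-2.32) and Hrc (-1.91) belong to the calcium store of the reticulum, and Atp2a2 (-0.77) is the calcium pump that Sln and Pln inhibit. Trdn was well above background on 2 of the 4 arrays in 85% O2, so that its change rests in part on values near background. At P14, 3 of the 8 fell, near the 32.7% of all tested probes (Trdn, Casq2 and Atp2a2, by 2.44, 1.93 and 0.98) and 2 rose, among them Slc8a1, the sodium-calcium exchanger (1.50). Of 8 energy metabolism genes, 5 fell at P5, among them Ckmt2 (-3.55), Ckm (-2.75), Mb (-2.31) and Pgam2 (-2.24), of which Ckm, Mb and Pgam2 are genes of skeletal muscle too. In 85% O2, Ckmt2 was well above background on 2 of the 4 arrays and Ckm on 3. Without the mouse rich in skeletal muscle genes, 2 of the 8 fell, Ckmt2 and Pgam2, while the 4 calls among the calcium handling genes remained. At P14, 2 of the 8 fell, a share below that of the array (Ckmt2 by 2.93 and Fabp3 by 0.96), and 1 rose, Cox6a2 (1.13).

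Among heart transcription factors, Tbx20 (-2.25), Nkx2-5 (-1.24), Smyd1 (-0.72) and Tbx5 (-0.39) fell at P5, while Gata4 (-0.30) and Mef2c (-0.02) did not pass the test. The change of Nkx2-5 was -1.11 and did not pass (adjusted p = 0.0583) without the mouse rich in skeletal muscle genes. Of 7 tested at P14, 4 fell, against 32.7% of all tested probes. Hand2, not well above background on any array in 85% O2, was at least 2.07-fold lower. Its adjusted p of 7.68e-05 (limma) is that of the measured levels, not of this bound. The others were Smyd1 (-1.04), Tbx5 (-0.92) and Mef2c (-0.63). Several of these are also active in other cells of the lung. Of 6 ventricle genes, 2 fell at P5 (Myl3 by 2.74 and Myl2 by 2.14) and 3 at P14 (Myl3 by 2.13, Hey2 by 1.69 and Myh7 by 0.81).

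A few heart genes were higher in 85% O2. Cox6a2, the heart and skeletal muscle form of a cytochrome oxidase subunit, had mean levels of 2.11 ± 1.36 and 2.94 ± 0.74 in scrambled antimiR mice at P5 in 21% and 85% O2, a change that did not pass (0.83 ± 0.54, limma, adjusted p = 0.230). Its rise passed in antimiR-34a mice at P5 (1.85 ± 0.54, adjusted p = 0.0116) and in scrambled antimiR mice at P14 (1.13 ± 0.45, adjusted p = 0.0402), and did not pass in antimiR-34a mice at P14 (0.82 ± 0.45, adjusted p = 0.118). At equal Myh6 level it was higher by 2.34 ± 0.42 at P5 and by 1.88 ± 0.26 at P14 in scrambled antimiR mice (adjusted p = 0.000955 and 7.04e-05). Kcnj5, a subunit of the atrial potassium channel opened by acetylcholine, was higher by 1.01 ± 0.23 at P5 (adjusted p = 0.00274), and by 1.50 ± 0.25 at equal Myh6 level. At P14 its change of 0.75 ± 0.41 did not pass (adjusted p = 0.129), and at equal Myh6 level it was higher by 1.36 ± 0.32 (adjusted p = 0.00277).

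Nppb, which encodes brain natriuretic peptide, the sister hormone of that of Nppa, was higher in 85% O2 in scrambled antimiR mice at both ages, by 1.14 ± 0.38 at P5 (limma, adjusted p = 0.0271, and 0.0600 without the mouse rich in skeletal muscle genes) and by 2.56 ± 0.39 at P14 (adjusted p = 7.43e-05). At P14 its levels ranged from -6.09 to -5.26 in 21% O2 and from -3.51 to -2.74 in 85% O2. The rise was larger at P14 than at P5 by 1.43 ± 0.57 (adjusted p = 0.0464). In antimiR-34a mice the change was 0.59 ± 0.38 at P5, which did not pass (adjusted p = 0.220), and 3.46 ± 0.39 at P14 (adjusted p = 4.79e-06). Nppb and Kcnj5 come from a list of electrical and peptide genes of the heart, of which 8 were tested. In scrambled antimiR mice, 2 of these rose while 2 fell at P5, and 1 rose while 2 fell at P14. For antimiR-34a mice the counts were 1 rise against 5 falls at P5 and 3 rises against 2 falls at P14. Skeletal muscle genes, by the fixed list, fell in 4 of 11 tested at P5 and 7 of 10 at P14 in scrambled antimiR mice, and white fat genes in 2 of 5 and 7 of 7, where 26.5% of all tested probes were lower at P5 and 32.7% at P14. Smooth muscle genes, another muscle of the vessel wall, fell in 8 of 10 at P5 with a median change of -0.48 (6 of 10, with a median of -0.39, without the mouse rich in skeletal muscle genes), and at P14 3 of 10 rose and 1 fell, with a median of 0.00. Their part in the change of the heart muscle genes was not tested.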

How the data were processed

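Whole-lung RNA of 32 mice was labelled with 1 dye and hybridised to Agilent mouse arrays, 1 mouse per array. The deposited scanner files hold spot intensity values that the authors extracted with Feature Extraction 10.7.3.1, background-subtracted and detrended within each array, with probe annotation on the mm9 build. Flags in these deposited files mark spots well above background, saturated or outlying. The deposited table of the authors' processed log2 values, whose normalization is not given in the sources used here, served as an alternative.

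From the processed intensity, log2 values were taken and each array's 75th percentile was subtracted. Control spots and spots marked as outliers (0.211%) were left out, and replicate spots were averaged. Tested were probes for which, in 1 group or more, each of the 4 arrays had a signal well above background. Tests were run with limma 3.58.1 in R 4.3.3, with a mean per group over the 4 groups of an age (all 8 for age comparisons) and p-values adjusted by Benjamini-Hochberg across every probe tested (threshold 0.05). Where no array of a group had a probe well above background, the fold is a bound against the higher of that probe's signal and the lowest signal well above background on each array. The adjusted p given with it is that of the measured levels, and the bound was not tested. The number of arrays, 4 a group, limits the precision. Each array is a separate mouse.

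Genes were named by these rules: the 10 genes on every probe, with the brighter probe of Myh6 as the main 1, lists of other heart and tissue genes by counts with up to 4 of the largest called changes, and the 15 genes most like the mean of the 10. Some genes that these rules cover are not reported here. The 10 genes and all lists were chosen with earlier results of these data known. The steps were tested on simulated data. Alternatives were normexp background correction (offset 50), quantile normalization, the authors' values, other filters, array weights, the replicate number or the slide as a block, only the compared groups, the methods' t-test (Welch's test) and leaving out each mouse. The Myh6 covariate and the lists without 1 mouse were added after seeing the data. Promoter and microRNA sequences are from RefSeq, GRCm38.p6.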

Additional observations from a re-analysis of the deposited data

Results flagged for a closer look

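The Nppa level of P14 21% O2 antimiR-34a replicate 4 was 4.50, far above the rest of its group, whose nearest mouse was at -1.42. The gap took 0.891 of the range of the group, above the 95% critical value of Dixon's test for 4 samples. It was 1 of 80 groups of 4 (10 genes in 8 groups) to stand out in this way, and chance gives about 1 in 20. The same mouse had the highest Myh6 level of its group, 6.98.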

How the results depend on the processing

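No direction of a called change turned under the settings of the tally that follows. With the Myh6 level as a covariate, the direction of Tnni3 at P5 did turn. In scrambled antimiR mice its called fall became a rise that did not pass. In antimiR-34a mice its fall, which had not passed, became a called rise. Among the oxygen and age effects on single genes, 632 values kept their side of the threshold, 46 lost the call and 22 gained it. This tally covers the other scalings, array weights, the replicate block, only the compared groups and leaving out each mouse. It leaves out the methods' t-test, the other filters and the Myh6 covariate. The count of the 10 genes called depended on how the spread was estimated and on single mice. By the methods' t-test it was 2 at P5 in scrambled antimiR mice, 1 at P5 in antimiR-34a mice and 0 at P14 in antimiR-34a mice (1 at an unadjusted p under 0.05). With only the compared groups in the fit it was 10 at P14 in scrambled antimiR mice, 5 at P5 and 2 at P14 in antimiR-34a mice, and 1 (Nppa) for the difference of the oxygen effect between ages. With the Myh6 level as a covariate it was 3 of 9 in scrambled antimiR mice at each age, and 3 at P5 also without replicate 4 of the 21% O2 group. Leaving out 1 mouse at a time gave 4 to 8 genes at P5 and 1 to 5 at P14 in scrambled antimiR mice, 1 to 2 at P5 and 2 to 10 at P14 in antimiR-34a mice, 1 for the age effect, and 0 for the antimiR effects and their differences. With the replicate number as a block, 6, 2, 5 and 5 genes were called for the oxygen effect at P5 (scrambled, antimiR-34a) and P14 (same order), and no count left the range of 1.5 times. Samples shared only a number: same-numbered deviations correlated between groups at -0.31 to 0.52, not every pair exceeded 0.1, and not every sample correlated best with its own number. Normexp background correction moved the median change of all probes at P14 in scrambled antimiR mice from -0.07 to 0.10. With array weights, the share of tested probes called for antimiR-34a in 21% O2 at P14 went from 0% to 25.7%. For the difference of the antimiR-34a effect between oxygen levels at P14 it went from 0.0884% to 14.4%. Tnni3 at P5 kept its call under 1 of 6 other settings (normexp) and lost it under the other 5, with an adjusted p of up to 0.0989, with only the compared groups. Pln was near background, so that its level in low mice is a limit of the signal.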
